A study of Rattus norvegicus with 2 samples.

Results

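The genes described here are 10 smooth muscle and myofibroblast contractile genes of rat skin, Cnn1, Actg2, Myh11, Tagln, Smtn, Lmod1, Synpo2, Mylk, Cald1 and Myl9. They were chosen by symbol, and all 10 were found among the 22312 genes of the deposited expression table, each as 1 row. The irradiated group was skin of male Sprague-Dawley rats of 4 weeks after 45 Gy given at once with a 6-MeV electron beam, in a study of skin fibrosis caused by radiation. It was set against skin from an area of such rats that had not been irradiated. Each group was 1 RNA sequencing library, which leaves every difference below without a replicate check or a test, and every statement describes these 2 libraries. Neither the time of sampling, the number of animals nor any pooling is stated in the labels, and the irradiated library is titled NC, an abbreviation they leave unexplained. The groups were taken from the source labels, on which every direction rests.

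Smooth muscle contracts when a rise in calcium switches on myosin light chain kinase, which phosphorylates the regulatory light chain of smooth muscle myosin and lets the heavy chain pull on actin filaments. Calponin, transgelin, caldesmon, smoothelin and leiomodin bind or shape those filaments, and dense bodies anchor them as Z-discs do in striated muscle. In skin such cells form the walls of vessels and the arrector pili muscles that raise the hairs, and the sheath of the hair follicle also holds contractile cells. Myofibroblasts, the contractile fibroblasts of healing wounds and fibrosis, switch on many of the same genes. Serum response factor drives much of this programme through a DNA element called the CArG box.

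The promoters of calponin 1 and enteric smooth muscle actin are shown because these genes had the largest ratios of the 10 with a pseudocount of 1 FPKM, though not with one of 5 FPKM, and those of a paralogue of each because the paralogues, which differed little between the libraries, carry a CArG box. Each line gives the 250 bases before the RefSeq start on build GRCr8, 5′ to 3′ on the strand of the gene. Capitals mark the CArG box, CCAAT and its reverse complement, the Sp1-type box GGGCGG and its reverse complement, the TEAD-type core CATTCC and its reverse complement, and the TATA sequence TATAAA on the strand of the gene. Cnn1 lies on chromosome 8 (28908187 to 28908436, plus strand), Cnn2 on chromosome 7 (10370313 to 10370562, minus strand), Actg2 on chromosome 4 (117594040 to 117594289, minus strand) and Acta1 on chromosome 19 (68784195 to 68784444, minus strand).
Cnn1: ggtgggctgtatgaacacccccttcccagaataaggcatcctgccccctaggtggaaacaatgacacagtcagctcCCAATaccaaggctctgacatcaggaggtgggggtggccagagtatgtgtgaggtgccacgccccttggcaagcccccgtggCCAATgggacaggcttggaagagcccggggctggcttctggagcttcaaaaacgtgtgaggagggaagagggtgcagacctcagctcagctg
Cnn2: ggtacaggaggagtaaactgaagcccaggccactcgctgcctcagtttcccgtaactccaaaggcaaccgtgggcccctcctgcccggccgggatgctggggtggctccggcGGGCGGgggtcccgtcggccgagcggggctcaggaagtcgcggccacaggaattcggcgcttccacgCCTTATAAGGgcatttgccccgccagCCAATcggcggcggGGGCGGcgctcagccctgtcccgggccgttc
Actg2: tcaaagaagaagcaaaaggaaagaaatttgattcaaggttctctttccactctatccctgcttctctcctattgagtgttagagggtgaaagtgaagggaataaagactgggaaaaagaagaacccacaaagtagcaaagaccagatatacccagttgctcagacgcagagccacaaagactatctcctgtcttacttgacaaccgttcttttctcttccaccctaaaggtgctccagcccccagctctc
Acta1: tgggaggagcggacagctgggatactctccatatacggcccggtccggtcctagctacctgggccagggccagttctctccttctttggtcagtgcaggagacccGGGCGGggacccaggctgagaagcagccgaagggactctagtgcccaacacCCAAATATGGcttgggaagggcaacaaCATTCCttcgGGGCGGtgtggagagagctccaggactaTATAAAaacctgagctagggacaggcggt
The calponin 1 window held CCAAT at -174 and -92 and no CArG box, while that of Cnn2 held a CArG box at -71. In the actin pair the Actg2 window held none of the 5 motifs, and that of skeletal actin Acta1 held a CArG box at -94, CATTCC at -67 and TATAAA at -29. A CArG box stood in 1.497% of all 33469 promoter windows of this length, CCAAT in 34.0%, GGGCGG in 30.5%, CATTCC in 12.1% and TATAAA in 8.06%. RefSeq promoters were matched for 6 of the 10 genes, and none of these 6 held a CArG box in this window. With a box in only 1.497% of all windows, this does not set the 6 apart from other genes. Of 19 matched paralogues 3 held one, Cnn2, Acta1 and Actg1, and Cnn2 and Acta1 are shown for that reason. CATTCC, the core of the element bound by TEAD factors, stood in the windows of Mylk and Cald1. Those of Myh11, Tagln, Lmod1 and Myl9 were not analysed here. A match is a match of letters only, and its absence says nothing of sites elsewhere in the gene.

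Of the 10 genes 8 stood higher in the irradiated library, Cald1 only slightly so, while Lmod1 stood much lower and Smtn was close to equal. Levels are FPKM, the authors' read density per transcript length and library size, which allows genes to be compared with each other. The log2 ratio is that of irradiated FPKM plus 1 over non-irradiated FPKM plus 1, and a gene was called at 2-fold if its mean over both libraries was at least 1 FPKM. By this rule 5 of the 10 genes were higher in irradiated skin, 1 was lower and 4 lay within 2-fold, against 9.70% of all 9743 measured genes called higher and 1.53% called lower. All 10 passed the minimum, but 3 of them, Cnn1, Actg2 and Mylk, were under 1 FPKM in the non-irradiated library, so they passed through their irradiated level. The median log2 ratio of the 10 was 0.94, while that of all measured genes was 0.21. After the ratios were centred on that median, 4 of the 10 were higher and 1 lower, against 6.92% and 2.73% of all genes, and Myl9 was the gene that left the call. In bulk tissue a difference in the number of cells of a type and a difference in RNA per cell cannot be told apart.

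The summed level of the 10 genes was 172 FPKM in irradiated skin and 98.4 FPKM in non-irradiated skin. They rested on 4007 of 11197464 estimated reads in the irradiated library, a share of 0.0358% (95% exact Clopper-Pearson interval 0.0347 to 0.0369%). In the non-irradiated library they had 2617 of 12649559 reads, a share of 0.0207% (0.0199 to 0.0215%). The interval given with each log2 ratio below is of the same kind, for the ratio of scaled counts without a pseudocount. It covers counting error only, and it need not hold the pseudocount ratio of a weakly expressed gene. For each of the 10 genes the scaled counts per FPKM differed by less than 1% between the libraries. Coordinates given with the genes below are those of the table, whose genome build is not stated, and they cannot be set beside the GRCr8 positions above.

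**Figure D1:**
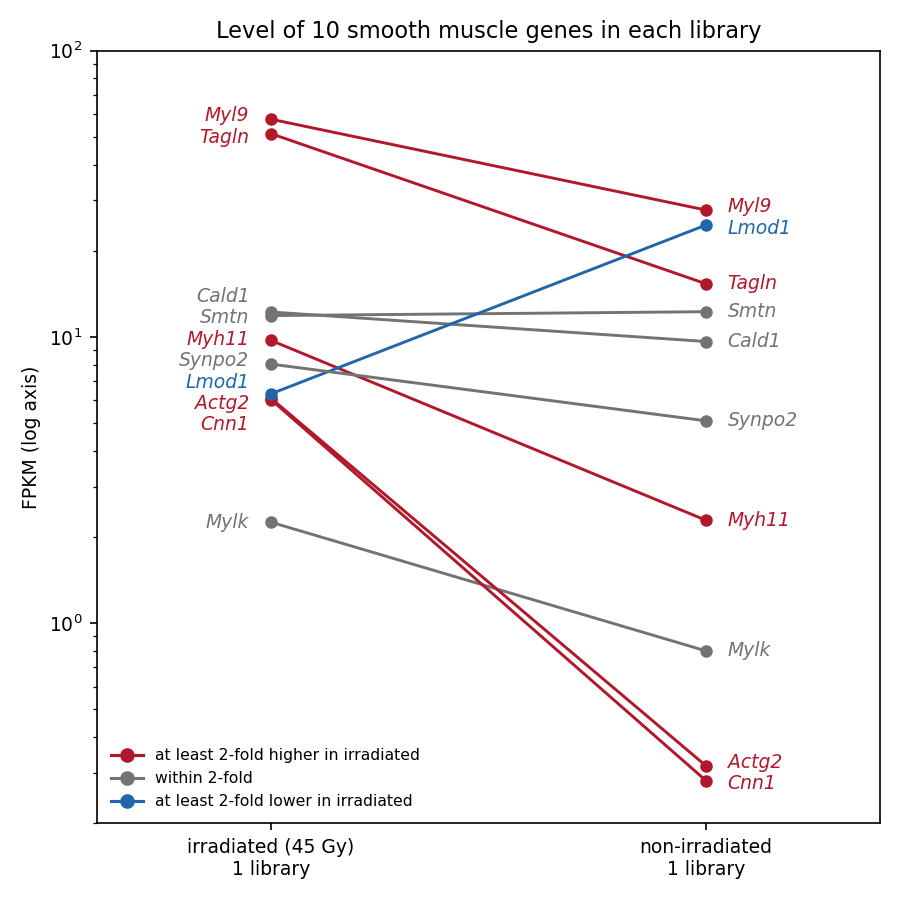
FPKM of the 10 genes on a log axis in the irradiated library (left) and the non-irradiated library (right), 1 library each, with a line joining the values of a gene and colours for genes at least 2-fold higher, within 2-fold or at least 2-fold lower in irradiated skin. Cnn1 and Actg2 have the steepest lines, and Lmod1 is the one gene called lower, at 6.33 FPKM in irradiated and 24.6 FPKM in non-irradiated skin.

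Of the motor proteins, Myh11, the heavy chain of smooth muscle myosin (ENSRNOG00000000029, chromosome 10, 11444266 to 11538406, plus strand), stood at 9.72 FPKM in irradiated and 2.29 FPKM in non-irradiated skin. Its log2 ratio was 1.71 on 773 against 202 reads (interval 1.86 to 2.32), so the whole interval lay beyond 2-fold. Myl9, the regulatory light chain (ENSRNOG00000020246, chromosome 3, 158832628 to 158838991, minus strand), was the most abundant of the 10 in both libraries, with 57.6 FPKM in irradiated and 27.8 FPKM in non-irradiated skin. It had a log2 ratio of 1.03 on 659 against 355 reads, and its interval of 0.85 to 1.23 spanned 2-fold. Both myosin subunits were thus more abundant in the irradiated library, with Myl9 at the edge of the call.

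Mylk, the kinase that activates this myosin (ENSRNOG00000002215, chromosome 11, 72103709 to 72313911, minus strand), stood at 2.25 FPKM in irradiated and 0.800 FPKM in non-irradiated skin, the lowest level of the 10 in irradiated skin. With the pseudocount its log2 ratio was 0.85 and it was not called. Its plain FPKM ratio was 2.81, and on 213 against 84 reads its interval was 1.12 to 1.87, beyond 2-fold.

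Actg2, the gamma actin of enteric smooth muscle (ENSRNOG00000029401, chromosome 4, 179805782 to 179830338, minus strand), stood at 6.10 FPKM in irradiated and 0.317 FPKM in non-irradiated skin. The log2 ratio was 2.43 on 86 against 5 reads (interval 2.98 to 5.91). Actins are similar in their coding sequence, and skeletal actin Acta1 had 495963 reads in irradiated skin and 572014 in non-irradiated skin. How reads were divided among the actin genes could therefore alter a count as small as that of Actg2, whose value is uncertain.

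Among the proteins bound to thin filaments, Cnn1, which encodes calponin 1, a brake on actomyosin (ENSRNOG00000027736, chromosome 8, 23167862 to 23176532, plus strand), had the largest ratio of the 10 with a pseudocount of 1 FPKM. It stood at 6.04 FPKM in irradiated and 0.282 FPKM in non-irradiated skin, a log2 ratio of 2.46 on 96 against 5 reads (interval 3.14 to 6.07). With a pseudocount of 5 FPKM the log2 ratios of Cnn1 and Actg2 were both 1.06, and Tagln led the 10 at 1.47. The gene was thus among the less abundant in irradiated skin and nearly missing from the non-irradiated library. A ratio above that of Cnn1 was found for 1.304% of all measured genes.

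Tagln encodes transgelin, an actin-binding protein that marks smooth muscle and myofibroblasts (ENSRNOG00000017628, chromosome 8, 48824387 to 48852863, minus strand). It stood at 51.3 FPKM in irradiated and 15.3 FPKM in non-irradiated skin, with a log2 ratio of 1.68 on 794 against 265 reads (interval 1.53 to 1.94). Its locus overlaps that of Pcsk7 on the opposite strand, at 3.30 FPKM in irradiated and 2.09 FPKM in non-irradiated skin, and it is not stated whether counting used the strand. The other 9 genes overlap no row of the table.

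Cald1, which encodes caldesmon, an inhibitor of actomyosin in smooth muscle with another form in non-muscle cells, stood at 12.2 FPKM in irradiated and 9.64 FPKM in non-irradiated skin. Its log2 ratio of 0.31 on 407 against 357 reads (interval 0.13 to 0.55) was close to the median of all genes. Smtn, which encodes smoothelin, a protein of actin filaments in contractile smooth muscle, stood at 11.9 FPKM in irradiated and 12.3 FPKM in non-irradiated skin. It had a log2 ratio of -0.04 on 463 against 531 reads, and its interval of -0.23 to 0.13 included equality. On the authors' scaling Smtn therefore showed no difference beyond counting error, in libraries in which Cnn1, Myh11 and Tagln stood well apart. The median of all measured genes, 0.21, lay above its interval, and 71.6% of them had a higher log2 ratio than Smtn.

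Lmod1 went the other way. This gene encodes leiomodin 1, which starts new actin filaments in smooth muscle (ENSRNOG00000007185, chromosome 13, 57197926 to 57237507, plus strand). It stood at 6.33 FPKM in irradiated and 24.6 FPKM in non-irradiated skin, with a log2 ratio of -1.80 on 124 against 537 reads (interval -2.26 to -1.68). The plain FPKM ratio, non-irradiated over irradiated, was 3.89, and 99.7% of all measured genes had a higher log2 ratio. Lmod1 was the second most abundant of the 10 in the non-irradiated library and only the seventh in the irradiated library. Per transgelin it was at 0.123 in irradiated and 1.60 in non-irradiated skin. Without Lmod1 the summed level of the other 9 genes was 165 FPKM in irradiated and 73.8 FPKM in non-irradiated skin. The identifiers of the Lmod1 and Myh11 rows differ from those that the table's own cross-reference column gives for these symbols, while the other 8 match, so which gene model the reads of these 2 rows belong to is less certain.

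Synpo2, which encodes synaptopodin 2, also called myopodin, a protein of Z-discs and dense bodies that skeletal muscle makes as well, stood at 8.04 FPKM in irradiated and 5.09 FPKM in non-irradiated skin. Its log2 ratio was 0.57 on 392 against 276 reads (interval 0.43 to 0.88), above equality but within 2-fold.

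**Figure D2:**
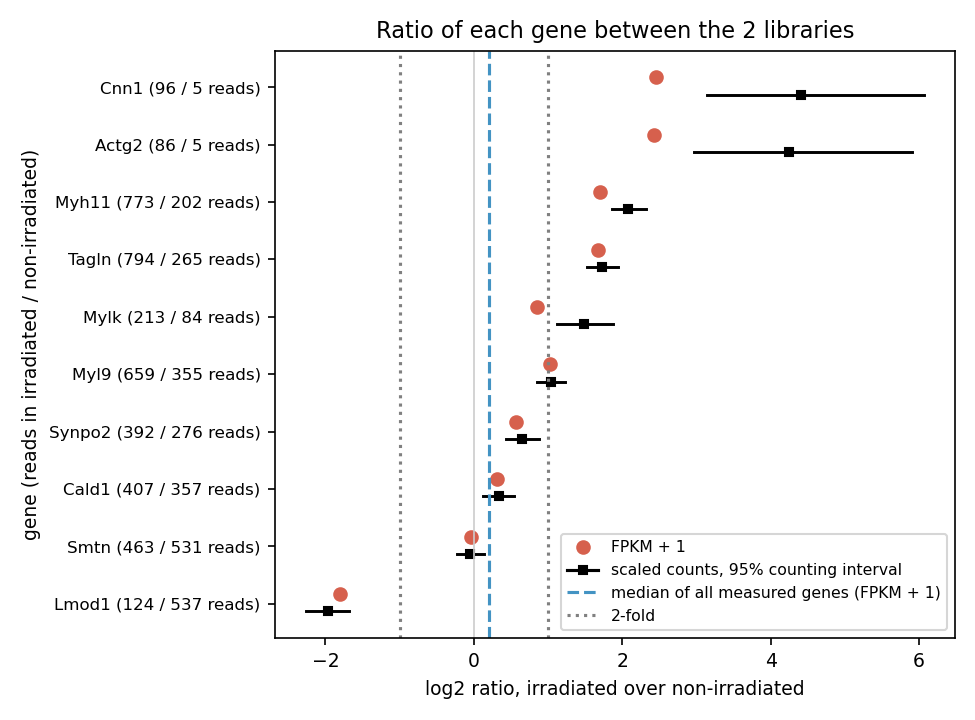
Log2 ratios of irradiated over non-irradiated skin for each gene, as FPKM plus 1 (circles) and as scaled counts with their 95% counting interval (squares and lines), with the reads in irradiated and non-irradiated skin beside each name. Dotted lines mark 2-fold and the dashed line the median of all measured genes at 0.21. The intervals of Cnn1, Actg2, Myh11, Tagln and Mylk lie wholly above 2-fold and that of Lmod1 wholly below, while those of Myl9, Synpo2, Cald1 and Smtn do not.

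The order of the genes by level differed between the libraries. Myl9 led in both. In irradiated skin it was followed by Tagln, Cald1, Smtn, Myh11, Synpo2, Lmod1, Actg2, Cnn1 and Mylk, and in non-irradiated skin by Lmod1, Tagln, Smtn, Cald1, Synpo2, Myh11, Mylk, Actg2 and Cnn1. Neighbours such as Actg2 and Cnn1, or Cald1 and Smtn, were so close in level that without replicates their order cannot be told. In proportion to Tagln, Cnn1 was at 0.118 in irradiated and 0.0184 in non-irradiated skin, and Myh11 at 0.189 in irradiated and 0.149 in non-irradiated skin. Cald1 in proportion to Tagln was lower in irradiated skin, at 0.238 against 0.628 in non-irradiated skin, though both genes stood higher there. The ratio of Myh11 to Tagln thus differed little between the libraries, and those of Cnn1 and Lmod1 to Tagln differed most.

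The paralogues of these genes serve striated muscle or non-muscle cells. With a pseudocount of 1 FPKM they lay almost all within 2-fold, as did 8649 of the 9743 measured genes. Of 17 measured paralogues 0 were at least 2-fold higher in irradiated skin and 1 was at least 2-fold lower, and their median log2 ratio was 0.15. Among all measured genes 9.70% were higher and 1.53% lower, so these counts do not set the paralogues apart. The lower one was Smtnl2, a smoothelin-like gene, at 37.3 FPKM in irradiated and 92.3 FPKM in non-irradiated skin (log2 -1.29). With a pseudocount of 0.1 FPKM, 2 paralogues were at least 2-fold higher. Within the calponins, Cnn1 made up 21.1% of the summed FPKM in irradiated and 1.19% in non-irradiated skin. Its relatives were nearly level, with Cnn2 at 8.38 FPKM in irradiated and 7.43 FPKM in non-irradiated skin and Cnn3 at 14.2 FPKM in irradiated and 15.9 FPKM in non-irradiated skin.

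Tagln made up 35.5% of the transgelins in irradiated and 16.0% in non-irradiated skin, with Tagln2 at 90.6 FPKM in irradiated and 79.1 FPKM in non-irradiated skin. Tagln3 had 2.68 FPKM in irradiated and 1.63 FPKM in non-irradiated skin. The transgelin of smooth muscle thus differed more than either relative.

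Of the summed FPKM of Myh11 and the non-muscle chains Myh9 and Myh10, Myh11 made up 76.0% in irradiated and 63.0% in non-irradiated skin. This sum leaves out the heavy chains of skeletal muscle, such as Myh4 at 3014 FPKM in irradiated and 4747 FPKM in non-irradiated skin. The non-muscle chain Myh10 was higher in irradiated skin too, at 2.98 FPKM against 1.32 FPKM in non-irradiated skin (log2 0.78), and Myh9 was near 0 in both libraries, on 7 reads in irradiated and 2 in non-irradiated skin. Of the summed FPKM of Myl9, Myl12a and Myl12b, Myl9 made up 12.8% in irradiated and 10.6% in non-irradiated skin. Myl12a also stood higher, at 364 FPKM in irradiated and 211 FPKM in non-irradiated skin. This sum leaves out Mylpf, a light chain of skeletal muscle, at 92922 FPKM in irradiated and 81247 FPKM in non-irradiated skin. Myl12b stood at 29.4 FPKM in irradiated and 23.7 FPKM in non-irradiated skin. Myl9, Myl12a and Myl12b are close in sequence, which makes their separate values uncertain.

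Skeletal muscle paralogues outnumbered several of the 10 genes. Actg2 made up 0.0193% of the actins in irradiated and 0.000974% in non-irradiated skin, beside Acta1 at 31269 FPKM in irradiated and 32320 FPKM in non-irradiated skin. The actins of non-muscle cells lay within 2-fold. Actb was higher, at 211 FPKM in irradiated and 146 FPKM in non-irradiated skin (log2 0.53, interval 0.44 to 0.61). Actg1 was nearly level, at 131 FPKM in irradiated and 136 FPKM in non-irradiated skin. Cardiac actin Actc1 had 4.35 FPKM in irradiated and 7.03 FPKM in non-irradiated skin.

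Mylk made up 2.19% of the light chain kinases in irradiated and 0.643% in non-irradiated skin, beside the skeletal kinase Mylk2 at 99.8 FPKM in irradiated and 124 FPKM in non-irradiated skin. Lmod1 made up 9.32% of the leiomodins in irradiated and 26.6% in non-irradiated skin, while Lmod3, the leiomodin of skeletal muscle, stood at 60.8 FPKM in irradiated and 66.9 FPKM in non-irradiated skin. The low Lmod1 of irradiated skin was therefore not shared by Lmod3.

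Smtn made up 10.7% of its family in irradiated and 6.04% in non-irradiated skin, since Smtnl1 was lower along with Smtnl2, at 62.2 FPKM in irradiated and 98.3 FPKM in non-irradiated skin. Synpo2 made up 42.7% in irradiated and 45.4% in non-irradiated skin, with Synpo2l at 7.53 FPKM in irradiated and 3.61 FPKM in non-irradiated skin. Synpo, the relative in kidney and brain, had 3.24 FPKM in irradiated and 2.50 FPKM in non-irradiated skin. Mylk3, Mylk4 and Lmod2 were under the minimum of 1 FPKM, as was Myh9.

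**Figure D3:**
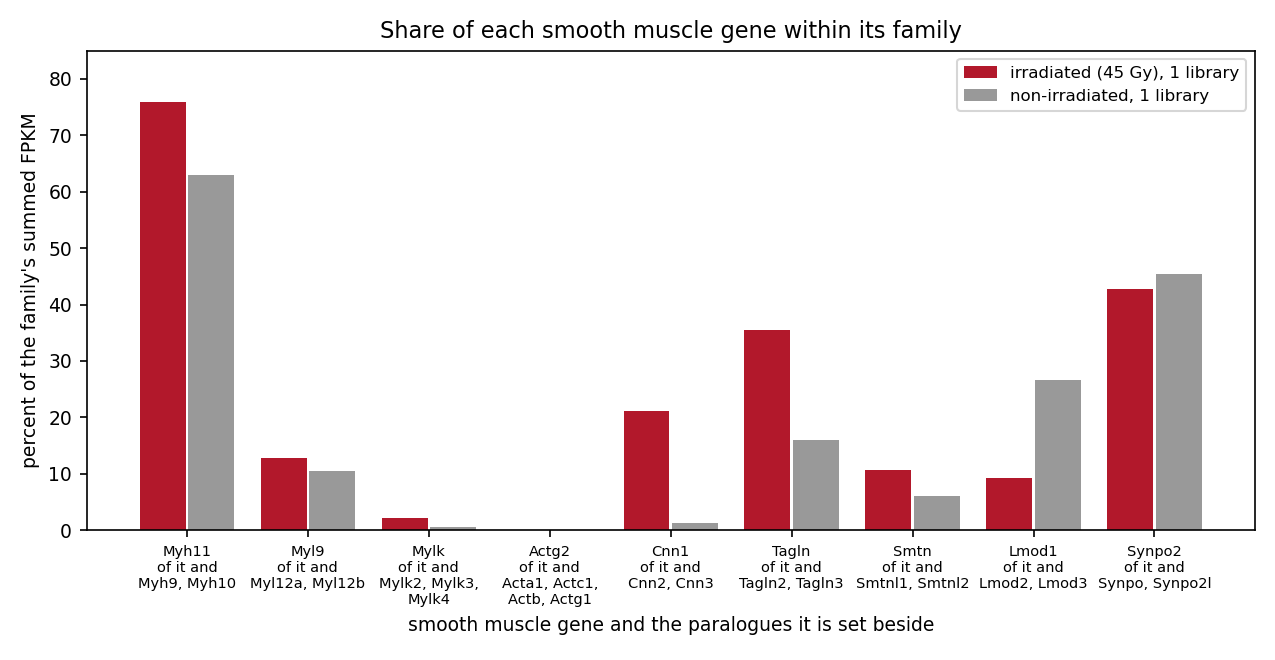
Percent of a family's summed FPKM that the smooth muscle gene makes up, in the irradiated library (red, left bar) and the non-irradiated library (grey, right bar), 1 library each, for the 9 genes set beside paralogues. The share of Cnn1 is 21.1% in irradiated and 1.19% in non-irradiated skin, that of Lmod1 is 9.32% in irradiated and 26.6% in non-irradiated skin, and that of Actg2 is too small to see. The Myh11 and Myl9 sums leave out the myosin chains of skeletal muscle.

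Other contractile, adhesion and dense-body genes stood between. Of 20 measured genes of this list 4 were at least 2-fold higher in irradiated skin and 0 were lower, and the median log2 ratio was 0.48, against 0.21 for all genes. Among all measured genes 9.70% were higher and 1.53% lower. Actn1, an actinin that crosslinks actin in dense bodies and focal adhesions, stood at 4.96 FPKM in irradiated and 1.02 FPKM in non-irradiated skin (log2 1.56). Flna, which encodes the actin crosslinker filamin A, stood at 11.1 FPKM in irradiated and 3.36 FPKM in non-irradiated skin (log2 1.47). The others were Tpm4, a tropomyosin of non-muscle cells, at log2 1.14, and Csrp1, a LIM protein abundant in smooth muscle, at log2 1.07. After centring on the median of all genes 2 of the list were called, Actn1 and Flna, beside 6.92% of all genes called higher. Tpm1 and Tpm2, the most abundant of the list and shared with skeletal muscle, had log2 ratios of 0.04 and -0.32. Desmin, the intermediate filament of all muscle, was lower in irradiated skin at 1345 FPKM against 2266 FPKM in non-irradiated skin (log2 -0.75). Acta2 and Myl6 of this list were not analysed here.

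The factors that drive the smooth muscle programme lay mostly within 2-fold, with a median log2 ratio of 0.38. Srf, which encodes serum response factor, stood at 10.9 FPKM in irradiated and 10.5 FPKM in non-irradiated skin (log2 0.04). Its smooth muscle coactivator Myocd was under the minimum, on 3 reads in irradiated and 5 in non-irradiated skin. Mkl1, a coactivator of Srf that answers to actin, stood at 3.08 FPKM in irradiated and 1.38 FPKM in non-irradiated skin (log2 0.77). Tead3, a factor of the TEAD family, was the single one of 7 measured regulators called, at 8.26 FPKM in irradiated and 3.40 FPKM in non-irradiated skin (log2 1.08), a ratio that was under 2-fold after centring. With 9.70% of all measured genes called higher, 1 of 7 is too few to set the regulators apart. The most abundant of the list were Mef2c (log2 0.42), which skeletal muscle also uses, and Klf4 (log2 -0.27), a repressor of smooth muscle genes that is also made by keratinocytes.

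Of 11 measured genes that control the force of contraction, 2 were higher and 0 lower, with a median log2 ratio of 0.08. Among all measured genes 9.70% were higher and 1.53% lower. After centring 1 of the 11 was higher, against 6.92% of all genes. Ppp1r12b, a targeting subunit of myosin phosphatase, stood at 4.01 FPKM in irradiated and 1.18 FPKM in non-irradiated skin (log2 1.20, and 0.99 after centring, under 2-fold). Pln, which encodes the calcium pump inhibitor phospholamban, had a log2 ratio of 1.42 on 16 against 4 reads. Rhoa, Rock1 and Rock2, which keep the phosphatase off, had log2 ratios of 0.08, 0.33 and -0.30.

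Receptors that drive smooth muscle were scarce, with 2 of 14 over the minimum. Agtr1a, an angiotensin receptor, was lower in irradiated skin at 0.881 FPKM against 3.06 FPKM in non-irradiated skin (log2 -1.11). Ednra, an endothelin receptor, was under the minimum on 40 reads in irradiated and 28 in non-irradiated skin.

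Markers of several cell types, only some of which can carry these genes, differed between the same 2 libraries. Each marker count below is to be set beside the 9.70% of all measured genes called higher and the 1.53% called lower. Markers of vessel mural cells summed to 24.8 FPKM in irradiated and 14.5 FPKM in non-irradiated skin, with 2 of 9 measured markers higher, 0 lower and a median log2 ratio of 0.42. The higher ones were Ndufa4l2 (log2 1.44), on 4 reads in irradiated and 1 in non-irradiated skin, and Abcc9 (log2 1.05, and 0.84 after centring, under 2-fold), a channel subunit of pericytes. Notch3, a receptor of mural cells, and Cspg4, the NG2 proteoglycan of pericytes, had log2 ratios of 0.87 and 0.75 and were not called, but their counting intervals of 1.41 to 2.45 and 1.02 to 1.83 lay beyond 2-fold. Mcam and Pdgfrb had log2 ratios of 0.42 and 0.14. Those of Rgs5 and Kcnj8 were 0.31 and 0.30, with counting intervals that included equality. Higd1b went the other way at -0.34, on 7 reads in irradiated and 12 in non-irradiated skin. Endothelial markers summed to 40.7 FPKM in irradiated and 53.9 FPKM in non-irradiated skin, with 0 of 10 higher, 2 lower (Emcn and Plvap) and a median of -0.28. None of the mural or endothelial markers was at 0 in either library.

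Fibroblast markers summed to 983 FPKM in irradiated and 1829 FPKM in non-irradiated skin, with 0 of 11 higher, 2 lower and a median of -0.60. The lower ones were Gsn (log2 -2.18) and Pi16 (log2 -1.91). Of 7 measured markers of activated fibroblasts 2 were higher and 0 lower, with a median of -0.09. Those were Tnc (log2 1.43) and Cthrc1 (log2 1.35), while Postn, a matrix protein of activated fibroblasts, was lower in irradiated skin at 49.7 FPKM against 67.7 FPKM in non-irradiated skin (log2 -0.44). Lrrc15 was at 0 in both libraries, and Adam12 was at 0 in irradiated skin with 1 read in non-irradiated skin.

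Epithelial markers differed most. The basal keratinocyte list, which the myoepithelial cells of glands share, summed to 1486 FPKM in irradiated and 94.7 FPKM in non-irradiated skin, with 9 of 10 measured markers higher, 0 lower and a median of 2.59. The hair follicle list summed to 170 FPKM in irradiated and 50.3 FPKM in non-irradiated skin, with 8 of 9 higher, 0 lower and a median of 1.33. Schwann cell markers had 4 of 7 higher, 0 lower and a median of 1.13, with sums of 106 FPKM in irradiated and 58.7 FPKM in non-irradiated skin. Skeletal muscle markers took 33.0% of the reads in irradiated and 36.2% in non-irradiated skin, with 4 of 24 higher, 0 lower and a median of -0.12. After centring, 8 basal keratinocyte, 5 hair follicle, 2 Schwann cell and 2 skeletal muscle markers were higher, and 1 skeletal muscle marker, Ckm, was lower. Among all genes 6.92% were then higher and 2.73% lower. The skin samples thus held much skeletal muscle, and the irradiated one held more epithelial transcripts. The part of any of these cell types in the ratios of the 10 genes was not tested, and with 1 library per group irradiation and the composition of the piece of tissue cannot be told apart.

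**Figure D4:**
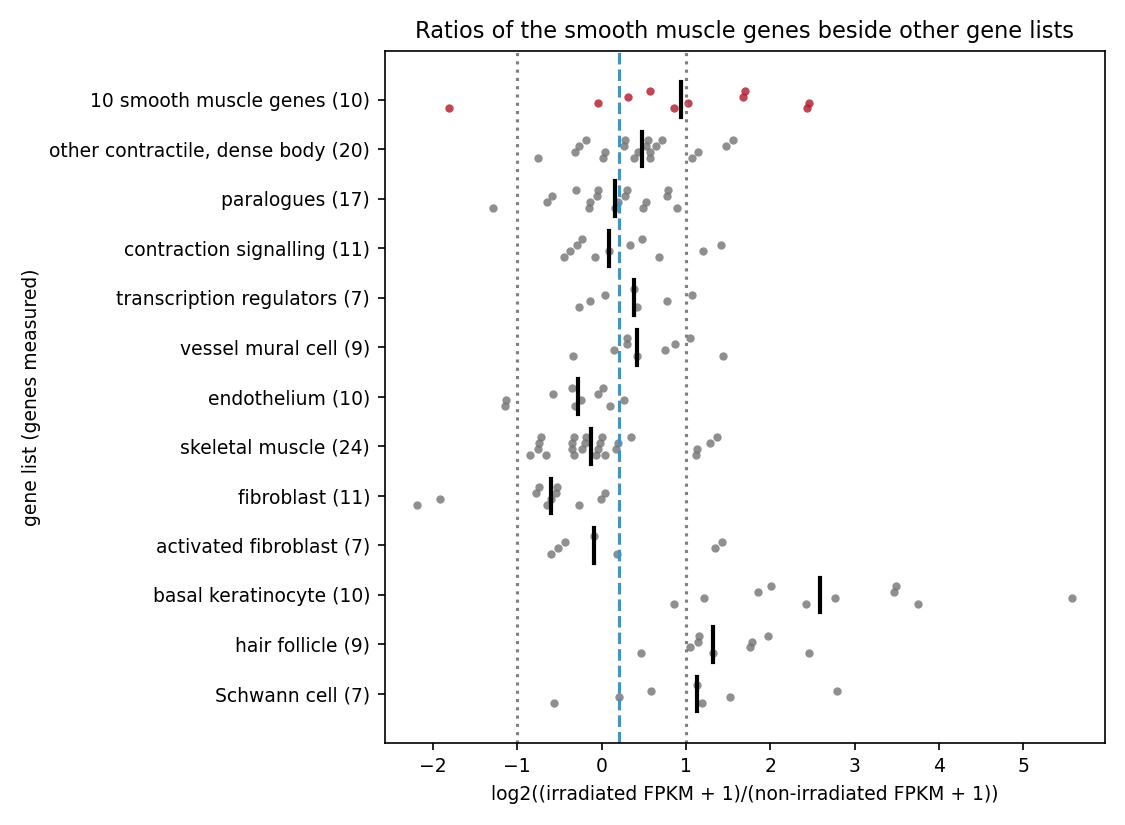
Log2 ratios of FPKM plus 1, irradiated over non-irradiated, for each measured gene (points) of 13 lists, with a black bar at the median of a list, the number of measured genes in brackets, dotted lines at 2-fold and a dashed line at the median of all genes. The 10 smooth muscle genes at the top spread from -1.80 (Lmod1) to 2.46 (Cnn1), while the basal keratinocyte, hair follicle and Schwann cell lists have the highest medians.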

How the data were processed

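Rat skin RNA was measured in 1 irradiated and 1 non-irradiated library. Per the labels' protocols, these were stranded total RNA libraries depleted of ribosomal RNA; among tools, the submitters' processing notes list HISAT2 2.0.4 and cutadapt 1.9.3 as well as Cuffdiff and Cufflinks, with no roles. Which genome build, annotation and strand setting were used is not given in the sources used here. FPKM values come from the authors, per the file headers. The columns deposited as counts hold a scaled signal, with 97.7% (irradiated) and 98.0% (non-irradiated) of values above 0 being whole multiples of 1 step, by a tolerance of 0.01 of a read and a small allowance that grows with the value. The step was 1.054 for irradiated and 0.951 for non-irradiated skin. Dividing by the step gave the estimated reads and depths. A count model was not used, because raw counts and replicates are lacking.

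Rows sharing a symbol were summed, which gave 22312 genes from 22714 rows, and 0 per-sample columns were left unused. A gene was measured where its mean reached 1 FPKM, which held for 9743 genes or 43.7%. Ratios used a pseudocount of 1 FPKM and calls a 2-fold threshold. Counting intervals are 95% exact Clopper-Pearson intervals, and PCR copies are not independent molecules. All 10 genes and every measured paralogue are given with values. Of the other lists, only some of the genes beyond 2-fold (at most 4) and of the most abundant are named. A few regulators, signalling genes and receptors were added after their values were seen. No gene is named of the basal keratinocyte, hair follicle and Schwann cell lists. Values of some signalling and receptor genes are not reported here, but these genes stay in the counts and medians of their lists. The genes and lists were chosen with earlier results of these data known. The calculations used Python 3.11.15, pandas 2.3.3 and scipy 1.17.1 and were tested on simulated data. Alternatives were other pseudocounts, filters, scalings, thresholds, the scaled counts and a floor of 3 reads.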

Additional observations from a re-analysis of the deposited data

How the results depend on the processing

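Under every alternative run, 1 of the 10 genes (Lmod1) was lower and every one of the 10 that was measured kept the sign of its ratio. The number higher was 3 with a mean of at least 5 FPKM, where Cnn1, Actg2 and Mylk fell under the filter by construction and the median log2 ratio of the rest was 0.57. It was 4 to 6 under the others. With a pseudocount of 0.1 the log2 ratios of Cnn1, Myh11 and Mylk were 4.01, 2.04 and 1.39, and 2 paralogues were higher. With a pseudocount of 5 those of Cnn1, Actg2, Myh11, Tagln, Lmod1 and Mylk were 1.06, 1.06, 1.01, 1.47, -1.39 and 0.32, the median of the 10 was 0.65, and 1 other contractile gene was higher. On scaled counts the log2 ratios of Cnn1, Actg2, Myh11 and Mylk were 4.15, 3.99, 2.08 and 1.48, the median was 1.26, and 2 paralogues were higher. Centring on the median gave Tagln, Smtn, Cald1 and Myl9 log2 ratios of 1.47, -0.25, 0.10 and 0.82, and the trimmed mean scaling gave 1.43, -0.28, 0.077 and 0.78; 2 other contractile genes were higher under each. Of the 10 alternatives that gave Myl9 a log2 ratio, only 5 left it called higher. Mylk stayed within 2-fold in 7 of the 9 that gave it a log2 ratio. At 1.5-fold 3 paralogues were higher. Where no construction shows it, the cause was not tested. No leave-one-out value and no replicate spread could be had with 1 library per group. No paired analysis was possible because the labels give 1 library per group and no replicate numbers. Depth limits Cnn1 and Actg2 most, with 5 reads each in the non-irradiated library.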

Other observations

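The table's own pathway column assigns 116 genes to vascular smooth muscle contraction, a list chosen after the values were seen. Of its 56 measured genes 9 were at least 2-fold higher in irradiated skin and 1 was at least 2-fold lower, with a median log2 ratio of 0.14, against 9.70% higher, 1.53% lower and a median of 0.21 among all measured genes. Without the contractile genes of the report it was 6 of 51 higher, or 11.8%, near the share among all genes. Among the 9 higher genes, 3 are contractile genes of the report, namely Actg2, Myh11 and Myl9. The other 6 were Calml5, Calml3 (log2 2.69), Itpr3 (1.33), Pla2g4b (1.29), Arhgef11 (1.23) and Ppp1r12b (1.20), of which Ppp1r12b was under 2-fold after centring on the median of all genes. Calml5 and Calml3 encode calmodulin-like proteins of the epidermis and other epithelia, and they stood at 9.13 and 21.8 FPKM in irradiated and 0.267 and 2.53 FPKM in non-irradiated skin. The lower gene was Agtr1a. The basal keratinocyte list had a median of 2.59 in the same libraries, and its part in these values was not tested.

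The genes next to Cnn1, Actg2 and Lmod1 in the table did not differ as those genes did. Ecsit and Elof1, on either side of Cnn1, had log2 ratios of -0.02 and 0.03, and Dguok and Stambp, beside Actg2, -0.50 and -0.39. Timm17a and Shisa4, beside Lmod1, had 0.24 and 0.15. Next to Mylk, Ptplb had a log2 ratio of 1.67, at 15.4 FPKM in irradiated and 4.16 FPKM in non-irradiated skin.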
